A study of Mus musculus with 9 samples.

Results

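The genes described here encode the nuclear pore and the carriers that move cargo through it. They were chosen by symbol, as those starting with Nup and a digit, Kpna or Kpnb and a digit, Xpo and a digit or t, or Ipo and a digit. Of 22180 genes tested on the arrays, 38 were members, with 18 Nup genes and 20 genes of importins and exportins. Ipo4, Kpna6 and Kpnb1 had several probe sets, and for these 3 members the one with the highest average intensity was used. The symbol rule uses no difference between gates, although this group of genes was picked with earlier results of these data known. Probe sets that carry several gene symbols were left out, so Nup62 and Nup85 were not analysed here, and neither was Nup35.

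The cells were CD11b+Ly6G- myeloid cells of C57BL/6J mice, all male and 8 weeks old, taken from the plantar hindpaw 24 h after an incision. No genetic change is named for any group. Flow cytometry divided them by surface Ly6C, which is abundant on monocytes newly arrived from blood, into a low, a medium and a high gate with 3 arrays each. RNA was amplified before it was labelled and hybridized, and the labels do not say whether the arrays of a gate are separate animals. The p-values therefore reflect only how far these samples spread, and part of that spread may be technical.

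The nuclear pore is a ring of repeated protein complexes set in the nuclear envelope. Outer and inner rings form its scaffold, a central channel lined with phenylalanine-glycine repeats gives the barrier, and filaments and a basket extend into the cytoplasm and the nucleus. Importins and exportins are carriers that bind cargo and cross this barrier, and the GTPase Ran sets the direction of travel. In monocytes and macrophages this route brings transcription factors such as NF-kB into the nucleus after a stimulus.

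All values are log2 intensities as deposited, so a difference of 1 is a 2-fold difference in intensity. The brightness of a probe set depends on its probes, so levels were compared between gates for a gene and not between genes. Array medians lay between 3.93 and 4.10. The correlation across genes was 0.983 to 0.989 within a gate and 0.964 to 0.989 between gates. Itgam, which encodes CD11b, was bright on every array (at least 10.43). Ly6g stood above the array median on 1 of 9 arrays, low replicate 2 (4.61). Ly6c2, the transcript of the sorted protein, was at 7.69 to 9.40 in Ly6C low, 11.20 to 11.27 in medium and 12.08 to 12.48 in high. The highest Ly6C low value was that of replicate 3, an array that stood apart from the other low arrays in several gene lists. Calls of the named pore and transport genes that are gained or lost without it are given below. The deposited values hold exact ties: for 51.7% of genes, 18 of the 38 members among them, at least a pair of arrays had the same value to 4 decimals.

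A pair of scaffold nucleoporins and a pair of importins were higher in Ly6C low than in Ly6C high cells. Nup93, which links the parts of the inner ring, rose 2.71-fold, and Nup107, a core subunit of the outer ring, rose 2.02-fold. The importins Ipo13 and Ipo11 rose 1.76-fold and 1.65-fold. These 4 of 38 members passed the limma test at an adjusted p under 0.05 and 0 were lower. That is 10.5% of the members, against 3.35% of all genes tested that passed as higher in low and 5.67% that passed in either direction. When only genes above the array median on at least 3 arrays were tested, 6 of 35 members (17.1%) were higher in low. Of all such genes, 6.78% passed as higher and 11.7% in either direction. Among genes reaching log2 6 on 3 or more arrays, 5 of 25 members passed in either direction (20%), a share no higher than the 20.7% of all such genes. Without low replicate 3 the count of members was 8, all higher in low (21.1%, against 5.6% of all genes in either direction).

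Nup93 had log2 values of 7.55, 7.21 and 7.72 in Ly6C low, 6.13, 6.64 and 6.59 in medium, and 5.98, 6.27 and 5.91 in high. Every low array lay above every medium and every high array, whereas medium and high overlapped. The means were 7.49 ± 0.26 in low, 6.45 ± 0.28 in medium and 6.05 ± 0.19 in high (SD, n = 3 each). Low exceeded high by 1.44 (SE 0.18, limma adjusted p = 0.00288), the largest difference among the 38 members. Low exceeded medium by 1.04 (limma adjusted p = 0.0271), and Nup93 was the only member past the threshold in that comparison. That second call was lost without any of 5 arrays in turn, low replicates 1 and 3 and each medium array, with an adjusted p up to 0.105. The call against high held without each of the 9 arrays in turn (adjusted p up to 0.0167).

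Nup107, whose protein sits in the Y-shaped complex of the outer ring, had values of 6.64, 6.66 and 6.57 in Ly6C low, 5.79, 6.23 and 6.31 in medium, and 5.37, 5.62 and 5.82 in high. The low arrays were close together and above all others, and medium overlapped with high by 1 array. The means were 6.62 ± 0.05, 6.11 ± 0.28 and 5.61 ± 0.23 in low, medium and high (SD, n = 3 each). Low exceeded high by 1.02 (SE 0.16, limma adjusted p = 0.00798), a call that held without each array in turn (adjusted p up to 0.0355). For low versus medium the difference was 0.51 (limma adjusted p = 0.171).

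Ipo11 encodes a carrier that imports ubiquitin-conjugating enzymes. Its values were 5.37, 5.30 and 5.06 in Ly6C low, 4.89, 4.88 and 4.86 in medium, and 4.49, 4.63 and 4.44 in high. The 3 gates did not overlap at all, and medium lay between low and high. Low exceeded high by 0.72 (SE 0.11, limma adjusted p = 0.00626), which held without each array in turn (adjusted p up to 0.0297). The steps low versus medium and medium versus high were both 0.36, with limma adjusted p = 0.147 and 0.428.

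Ipo13 encodes a carrier that works in both directions, bringing the SUMO-conjugating enzyme into the nucleus and the translation factor eIF1A out. It stood at 7.00, 6.87 and 6.42 in Ly6C low, 6.33, 6.46 and 6.33 in medium, and 5.79, 6.33 and 5.74 in high. Low lay above high on every array, while its replicate 3 fell within the medium range. The difference low minus high was 0.81 (SE 0.19, limma adjusted p = 0.0409). Leaving out single arrays ended this call for 7 of 9, all except high replicate 2 and low replicate 3, with an adjusted p up to 0.141 without low replicate 1. It was also lost with quantile normalization repeated, with a trended and robust prior and with only low and high in the fit.

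**Figure D1:**
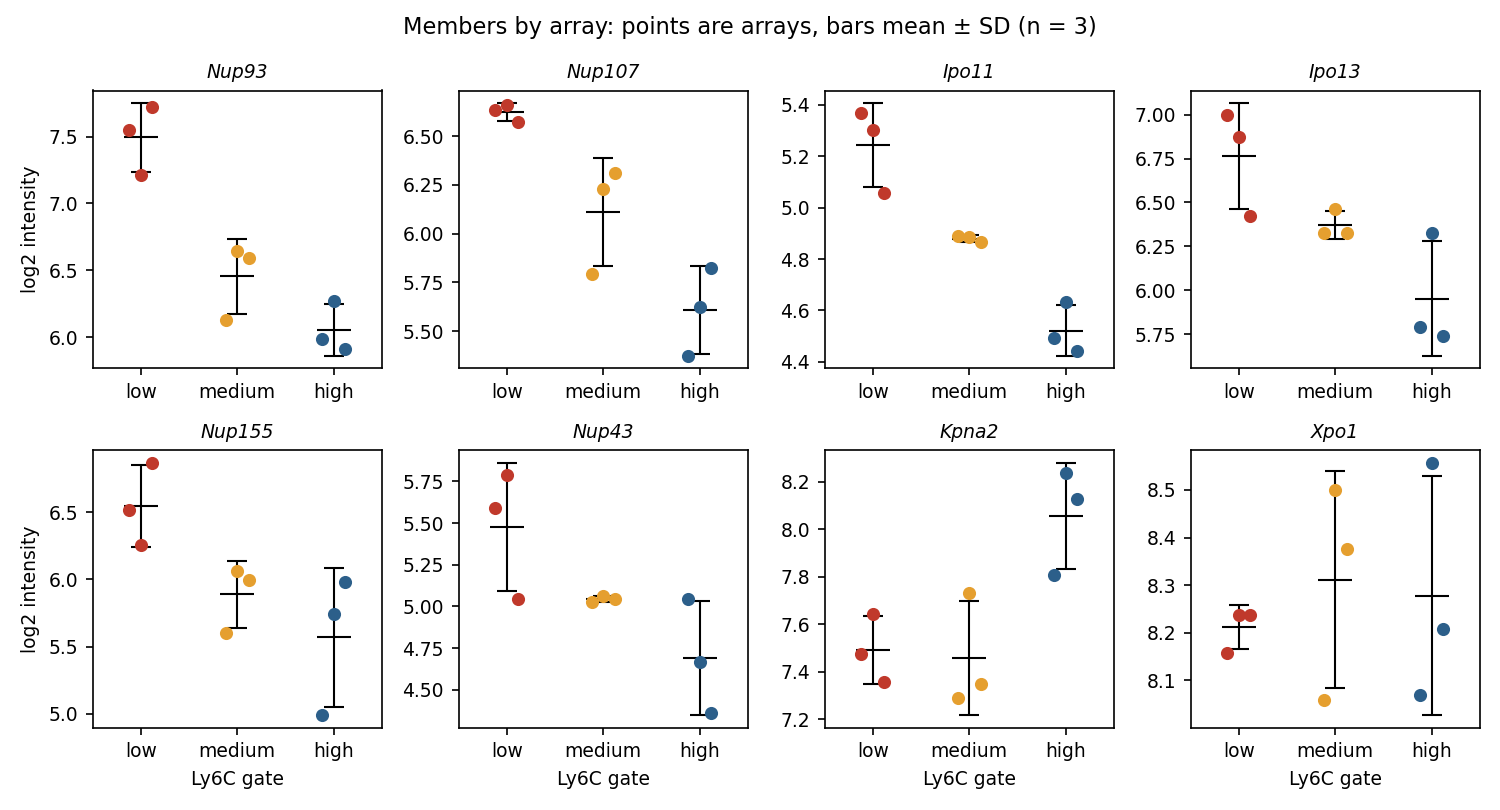
Log2 intensity (vertical axis, scaled separately for each gene) on each array of the Ly6C low, medium and high gates for 8 members. Points are arrays and bars are mean ± SD (n = 3); Nup93, Nup107, Ipo11 and Ipo13 have every low point above every high point, Kpna2 has every low point below every high point, and the gates of Xpo1 overlap.

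The promoters of the 4 genes that passed the test are shown because these genes were higher together in Ly6C low. Each window runs from 250 bases before to 50 after an annotated start in RefSeq (GRCm38.p6), read 5′ to 3′ on the strand of the gene. Capitals mark matches on either strand to the GC box GGGCGG, the CCAAT box CCAAT, the ETS motif CCGGAAG and the NRF1 motif, which is GCGCA followed directly by TGCGC. Nup93 lies at chr8:94214314-94214613 on the plus strand, and a second window of that gene is not shown. Nup107 lies at chr10:117792656-117792955, Ipo11 at chr13:106936909-106937208 and Ipo13 at chr4:117914950-117915249, all on the minus strand.
Nup93: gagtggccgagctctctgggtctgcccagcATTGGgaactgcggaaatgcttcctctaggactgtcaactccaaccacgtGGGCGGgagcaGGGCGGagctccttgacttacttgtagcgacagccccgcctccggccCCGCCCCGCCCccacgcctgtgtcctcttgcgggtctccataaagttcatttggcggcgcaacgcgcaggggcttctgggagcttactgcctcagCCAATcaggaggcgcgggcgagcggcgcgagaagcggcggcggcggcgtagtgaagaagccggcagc
Nup107: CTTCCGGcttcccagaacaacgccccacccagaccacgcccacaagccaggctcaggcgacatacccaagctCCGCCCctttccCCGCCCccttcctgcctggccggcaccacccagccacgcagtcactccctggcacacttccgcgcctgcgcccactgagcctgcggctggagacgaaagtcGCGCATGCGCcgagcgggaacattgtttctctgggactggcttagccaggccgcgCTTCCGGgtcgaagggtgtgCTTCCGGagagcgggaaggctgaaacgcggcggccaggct
Ipo11: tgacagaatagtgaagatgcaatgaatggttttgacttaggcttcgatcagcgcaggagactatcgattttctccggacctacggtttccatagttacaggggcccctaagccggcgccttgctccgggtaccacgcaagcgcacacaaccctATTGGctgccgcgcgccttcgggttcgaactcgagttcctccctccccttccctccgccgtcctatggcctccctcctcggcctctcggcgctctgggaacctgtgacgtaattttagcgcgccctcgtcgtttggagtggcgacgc
Ipo13: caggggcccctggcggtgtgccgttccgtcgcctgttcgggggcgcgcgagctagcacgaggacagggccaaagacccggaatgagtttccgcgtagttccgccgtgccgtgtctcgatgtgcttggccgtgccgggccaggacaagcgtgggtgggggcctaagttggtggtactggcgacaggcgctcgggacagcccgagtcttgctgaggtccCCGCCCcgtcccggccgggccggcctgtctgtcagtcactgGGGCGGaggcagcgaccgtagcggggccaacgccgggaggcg

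The 4 windows held 28, 27, 28 and 35 CG dinucleotides in the order printed, and the second window of Nup93 held 3. The median was 28 over the 36 windows of the 31 members with an entry, against 7 over all 32851 windows. Nup107 held 3 ETS matches, 2 GC boxes and an NRF1 match, while Nup93 held 4 GC boxes, of which a pair overlap by a base, and 2 CCAAT boxes. Ipo13 held 2 GC boxes and Ipo11 a CCAAT box. No motif searched occurred in all 4 windows. Over the members, 66.7% of windows held a GC box, 55.6% a CCAAT box, 16.7% the ETS motif and 8.33% the NRF1 motif, against 35.7%, 37.4%, 8.86% and 0.971% of all windows. The E2F motif TTTCCCGC was found in 2.78% of member windows, against 1.07% of all, and its form TTTGGCGC in 0 of 36, against 0.514%. The TATA box TATAAA was in 11.1% of member windows, against 13.6% of all. A match is only a string of letters, and no binding was measured.

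The other 4 Nup genes placed here in the outer ring did not pass the test. All 5, Nup107 included, had a higher mean in Ly6C low than in Ly6C high, against 52.7% of all genes. This count depends on the placing of genes. Nup98, whose precursor also yields a scaffold subunit, was counted with the channel and had a lower mean in low (-0.28). Seh1l, a subunit of this complex outside the symbol rule, went the other way and passed as lower in low. Sec13, also outside the rule, had a higher mean in low (0.28) and did not pass (limma adjusted p = 0.191). Nup43, a peripheral subunit, was at 5.59, 5.79 and 5.05 in low, 5.03, 5.06 and 5.05 in medium, and 5.05, 4.67 and 4.36 in high. Its lowest low value, on replicate 3, was exactly tied with a medium and a high array, and the difference low minus high was 0.79 (limma adjusted p = 0.0726). Nup133, which anchors the complex to curved membrane, differed by 0.53 (limma adjusted p = 0.164) and was at 6.18, 5.92 and 5.48 in low, against 5.37, 5.48 and 5.14 in high. Both genes passed when low replicate 3 was left out, at adjusted p = 0.0219 and 0.0429, and Nup43 also among genes above the array median (adjusted p = 0.0466). For Nup160 and Nup37 the differences were 0.33 and 0.21.

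The inner ring had 3 of its 4 measured members above Ly6C high on every Ly6C low array, against 11.4% of all genes. Besides Nup93 these were Nup155, a scaffold subunit that contacts the membrane, and Nup205, a large subunit of the ring core. Nup155 stood at 6.52, 6.25 and 6.87 in low, 5.60, 6.06 and 6.00 in medium, and 4.99, 5.74 and 5.98 in high. The high arrays were spread widely (SD 0.52), and the difference of 0.98 did not pass (limma adjusted p = 0.0687). It passed when only genes above the array median on 3 or more arrays were tested (limma adjusted p = 0.0417). It also passed among genes reaching log2 6 on 3 or more arrays (limma adjusted p = 0.0274). Nup155 entered that second filter through its low arrays and medium replicate 2, with no high array reaching 6, so that result is not separate evidence. Nup205 was at 6.63, 7.07 and 6.39 in low, against 6.38, 5.98 and 5.82 in high, a difference of 0.64 (limma adjusted p = 0.107). The single-symbol probe set of Nup188, the partner scaffold of the same ring, was near the floor of the array at 3.25, 3.59 and 3.43 in low, medium and high, so it carries little information.

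Nucleoporins of the channel, the cytoplasmic face and the basket showed smaller differences. Nup98, a channel and barrier protein made from a precursor that also yields a scaffold subunit, averaged 9.48 ± 0.11 in Ly6C low and 9.76 ± 0.20 in high (SD, n = 3 each). All low values were below all high values, at a difference of -0.28 (95% interval -0.60 to 0.03, limma adjusted p = 0.34). Nup54, also of the channel, differed by 0.12 (adjusted p = 0.821 with limma). Nup214, which holds messenger RNA export factors at the cytoplasmic face, was at 6.58, 6.56 and 6.40 in low, 6.13, 6.14 and 6.22 in medium, and 6.02, 6.36 and 6.05 in high. Low lay above both other gates on every array, and the difference low minus high was 0.37 (limma adjusted p = 0.111).

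Nup88, the partner of Nup214, had the same value of 7.78 on all 3 Ly6C low arrays and differed from high by 0.06 (95% interval -0.32 to 0.44). The basket proteins Nup153 and Nup50 differed by 0.04 (95% interval -0.21 to 0.29) and -0.11 (95% interval -0.51 to 0.29). Nup210, a membrane glycoprotein of the pore, was at 4.48, 4.53 and 5.26 in low, against 4.61, 4.40 and 4.50 in high, so replicate 3 alone lay above the high range. Nup210l, a paralogue of Nup210, differed by 0.68 (limma adjusted p = 0.115) and passed without low replicate 3 (adjusted p = 0.0354). Nup62cl, a relative of Nup62, was below the array median on every array.

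Importin alpha proteins are the adaptors that read the classical nuclear localization signal. Of 6 measured, 0 passed the limma test between Ly6C low and Ly6C high, 1 had an unadjusted p under 0.05, and 4 had a lower mean in low. Over all genes, 5.67% passed in either direction, 17.9% had an unadjusted p under 0.05 and 52.7% had a higher mean in low. Kpna2, the member of the family most tied to dividing cells, was at 7.48, 7.64 and 7.36 in low, 7.29, 7.73 and 7.35 in medium, and 7.81, 8.24 and 8.13 in high. All low and all medium arrays were below all high arrays. The differences were -0.57 for low minus high (SE 0.16, limma adjusted p = 0.0801) and -0.60 for medium minus high (limma adjusted p = 0.329). Neither passed the test, although the first passed (adjusted p = 0.0431) when only genes reaching log2 6 on 3 or more arrays were tested. RefSeq lists a pseudogene of Kpna2, and the probe set may also measure that copy.

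Kpna3 and Kpna4, adaptors known to carry NF-kB subunits, differed by -0.27 (95% interval -0.63 to 0.09) and -0.14 (95% interval -0.46 to 0.17) between low and high. Kpna3 was lower on all low arrays (8.27 to 8.38) than on all medium arrays (8.57 to 9.09), at -0.43 (limma adjusted p = 0.244). Kpna1 differed by 0.01 (95% interval -0.25 to 0.26) and Kpna6 by 0.10 (95% interval -0.12 to 0.33). Kpna7, an adaptor of oocytes and early embryos, was below the array median on every array.

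Among the importin beta family all 8 measured members had a higher mean in Ly6C low than in Ly6C high, and 2 of them, Ipo11 and Ipo13, passed the test. Over all genes, 52.7% had a higher mean in low and 3.35% passed as higher, and 6 of the 8 members of this family did not pass. Ipo4, a carrier of histones, was at 7.26, 7.25 and 6.66 in low, against 6.14, 6.82 and 5.89 in high, a difference of 0.77 (limma adjusted p = 0.123). Without high replicate 2, its highest high array, Ipo4 passed (adjusted p = 0.0368). Kpnb1, the carrier that works with importin alpha, was at 9.79, 9.82 and 9.86 in low, against 9.73, 9.58 and 9.58 in high. The low arrays were all above the high arrays by a small margin, 0.19 (95% interval -0.12 to 0.50, limma adjusted p = 0.566). Ipo5 and Ipo7, carriers of ribosomal proteins, differed by 0.02 (95% interval -0.29 to 0.33) and 0.19 (95% interval -0.08 to 0.45). Ipo8 and Ipo9 differed by 0.37 and 0.14.

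Exportin genes went both ways, 3 with a higher and 3 with a lower mean in Ly6C low than in Ly6C high, and 0 of 6 passed the test with limma. Over all genes, 52.7% had a higher mean in low and 5.67% passed in either direction. At an unadjusted p under 0.05 there was 1 of 6, against 17.9% of all genes: Xpo5, which exports precursors of microRNAs. Xpo5 was at 6.54, 6.23 and 5.71 in low, 5.75, 5.63 and 5.26 in medium, and 5.59, 5.58 and 5.31 in high. Low lay above high on every array, at 0.66 (limma adjusted p = 0.123), and the gene passed without low replicate 3 (adjusted p = 0.029). Xpo1, the main exporter of proteins with a leucine-rich signal, was at 8.16, 8.24 and 8.24 in low, against 8.07, 8.56 and 8.21 in high. These overlapped, with a difference of -0.07 (95% interval -0.41 to 0.28). Xpot, the exporter of transfer RNA, differed by 0.29 (95% interval -0.30 to 0.87). Xpo4, Xpo6 and Xpo7 differed by 0.17, -0.10 and -0.12.

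**Figure D2:**
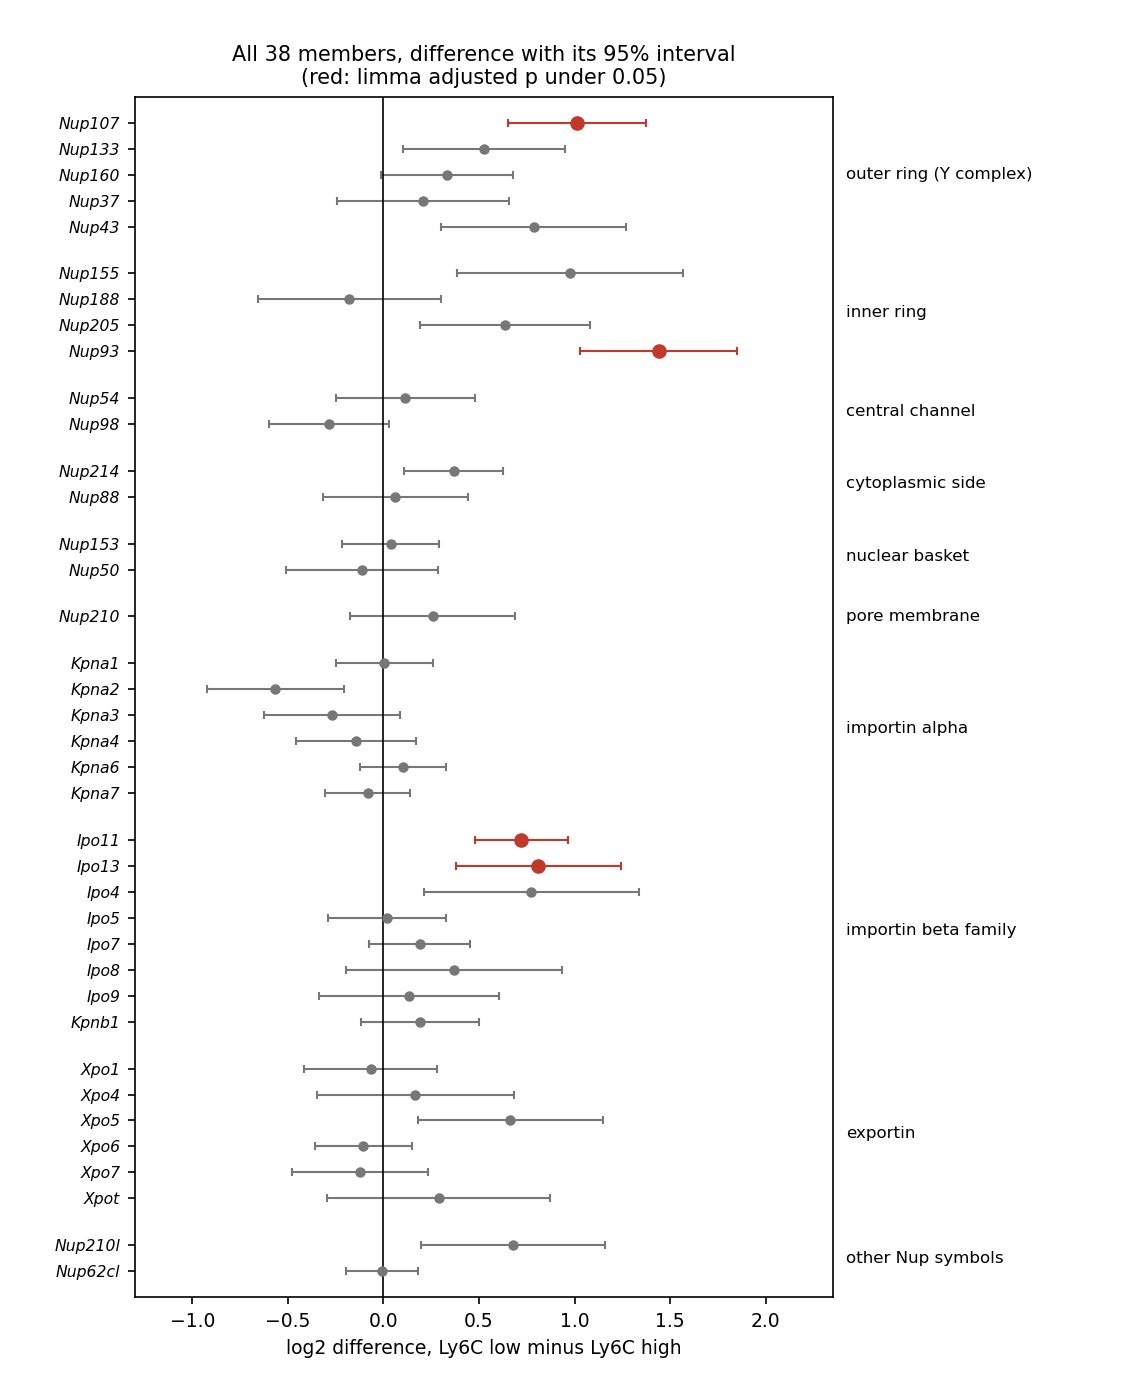
Log2 difference, Ly6C low minus Ly6C high (horizontal axis), for all 38 members grouped by their place in transport; points are differences from the limma fit and bars their 95% intervals. The 4 members in red passed the test, Nup93 at 1.44 stands farthest to the right and Kpna2 at -0.57 farthest to the left.

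Over all 38 members the median difference, Ly6C low minus Ly6C high, was 0.18, with 25% of members below -0.05 and 25% above 0.61. The median was 0.01 over all genes tested and 0.03 over the 12657 genes above the array median on at least 3 arrays. The mean was higher in low for 27 members (71.1%, against 52.7% of all genes and 54.1% of those 12657 genes). Every low array was above every high array for 10 members (26.3%, against 11.4% of all genes), and every low array was below for 2, Nup98 and Kpna2 (5.26%, against 8.76%). At an unadjusted p under 0.05 there were 13 members, 12 higher and 1 lower (34.2%, against 17.9%). The shares of all genes include dimmer genes, whereas 34 members were above the array median on all arrays. The median was 0.29 over the 18 Nup genes and 0.12 over the 20 carriers, and the difference between these groups was not tested. In bulk samples such as these, fewer cells of a type and less RNA per cell cannot be told apart.

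Few differences were found between Ly6C medium and high cells in these genes. With limma, 0 of 38 members passed for medium versus high, where 0.239% of all genes passed. At an unadjusted p under 0.05 there were 3 (7.89%, against 7.53% of all genes): Nup107 and Ipo11 with a higher and Kpna2 with a lower mean in medium. The median member difference was 0.04, against 0.03 over all genes. Ipo5 was lower on every medium array (7.71 to 8.13) than on every high array (8.17 to 8.33), at -0.29 (limma adjusted p = 0.681).

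For low versus medium, 1 member passed, Nup93, against 1.93% of all genes in either direction and 1.38% as higher in low. At an unadjusted p under 0.05 there were 9 members (23.7%, against 14.1% of all genes), 8 higher and 1 lower in low. The median member difference was 0.22, against -0.02 over all genes. This comparison and low versus high share the low arrays, so they are not separate evidence. For the 4 genes that rose in low, the distance of medium from high was 0.278 of the distance of low from high for Nup93, 0.497 for Nup107, 0.495 for Ipo11 and 0.516 for Ipo13.

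**Figure D3:**
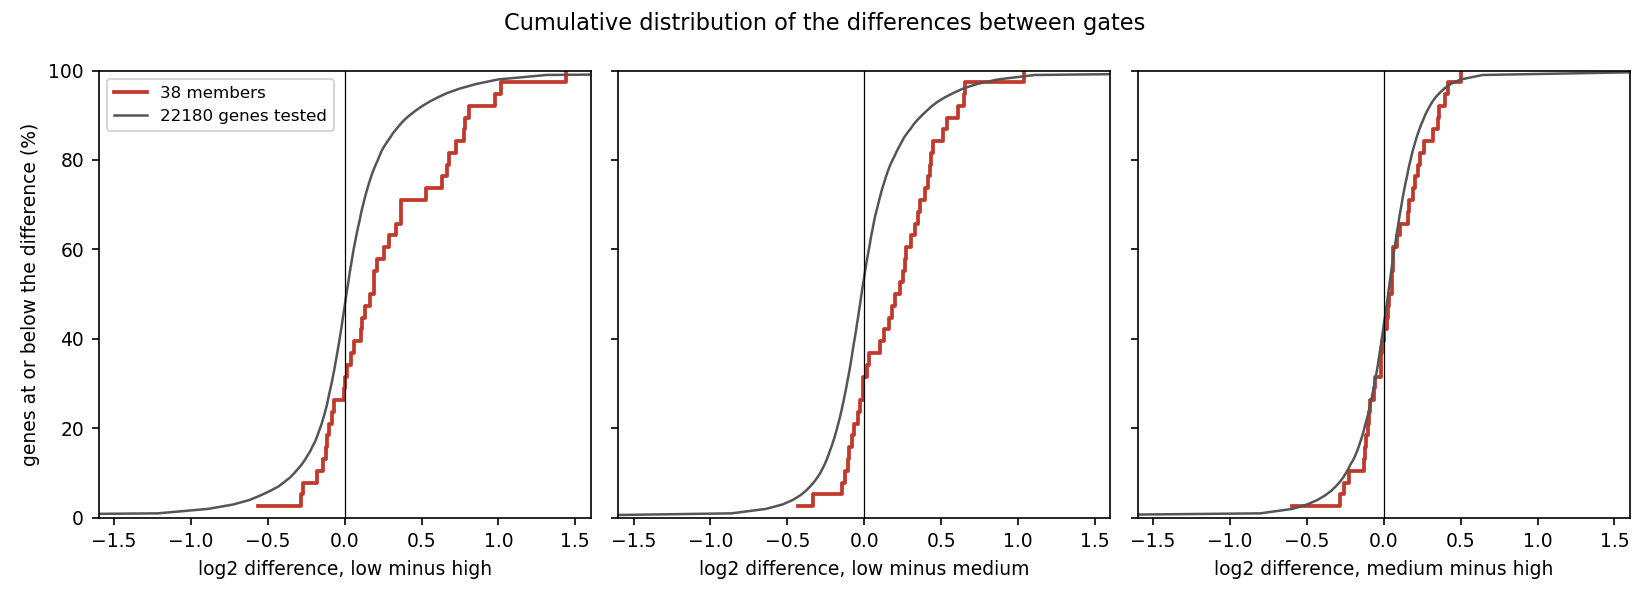
Share of genes (vertical axis, percent) at or below each log2 difference (horizontal axis) for the 38 members and for all 22180 genes tested, in the 3 comparisons. For low minus high and low minus medium the line of the members lies to the right of all genes through the middle of its range, with medians of 0.18 against 0.01 and 0.22 against -0.02; for medium minus high the lines lie close together, with medians of 0.04 and 0.03.

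The list of other pore and transport genes had 32 symbols, of which 26 were measured. In Ly6C low, 4 were higher than in Ly6C high and 1 lower by the limma test, against 3.35% of all genes higher and 5.67% in either direction. The median difference was 0.20, against 0.01 over all genes. Ndc1, a membrane protein that anchors the pore, was at 5.07, 5.42 and 5.61 in low, 4.72, 4.57 and 4.49 in medium, and 4.46, 4.39 and 4.72 in high. It was above both other gates on every low array and rose by 0.84 over high (limma adjusted p = 0.0161) and 0.77 over medium (limma adjusted p = 0.0449). Aaas, whose protein aladin binds Ndc1, rose by 0.82 over high (limma adjusted p = 0.0418).

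Ran, the GTPase that sets the direction of transport, was at 8.54, 8.50 and 8.41 in Ly6C low, 8.08, 8.25 and 7.93 in medium, and 8.08, 7.63 and 7.91 in high. The low arrays were above all others, and Ran rose by 0.61 over high (limma adjusted p = 0.0337). Rangap1, which makes Ran hydrolyse its GTP, was at 7.27, 7.26 and 7.26 in low, 7.03, 7.04 and 7.04 in medium, and 6.98, 6.74 and 6.76 in high. The gates did not overlap, and Rangap1 rose by 0.44 over high (limma adjusted p = 0.0299). Rcc1, which loads Ran with GTP on chromatin, differed by 0.05 (limma adjusted p = 0.921).

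Seh1l, a subunit of the same outer ring complex as Nup107, fell by 0.59 on the log2 scale in Ly6C low (limma adjusted p = 0.0465). It was at 6.33, 6.82 and 6.58 in low, 6.82, 6.66 and 6.82 in medium, and 7.36, 7.04 and 7.11 in high, so low and medium were both below high on every array. Cse1l, which returns importin alpha to the cytoplasm, differed by 0.07 (limma adjusted p = 0.911), and Ranbp2, the main protein of the cytoplasmic filaments, by 0.03 (limma adjusted p = 0.969). The calls against high were each lost when some single arrays were left out: Ndc1 for 2 of 9 (adjusted p up to 0.0627), Rangap1 for 5 (0.0966), Ran for 6 (0.113), Aaas for 8 (0.13) and Seh1l for 8 (0.141). The Ndc1 call against medium was lost for 7 (up to 0.157). With only low and high in the fit, none of these 5 calls held (adjusted p between 0.0578 and 0.114). Seh1l has 2 probe sets, and with their mean it differed by -0.32 (adjusted p = 0.162). Its call was also lost with a trended and robust prior, with array weights and with the replicate number as a block. Against high, Aaas was also lost with quantile normalization repeated (limma adjusted p = 0.0625) and Rangap1 with the trended and robust prior (limma adjusted p = 0.0854). The Ndc1 call against medium was also lost with quantile normalization repeated, the trended and robust prior, the replicate block and only low and medium in the fit.

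Some genes of the cell cycle were also higher in Ly6C low. For comparison, 3.35% of all genes passed as higher in low and 5.67% in either direction. Of 20 S phase genes 2 were higher in Ly6C low than in Ly6C high and 0 lower, Mcm6 by 2.00 (limma adjusted p = 0.0108) and Mcm3 by 1.58 (limma adjusted p = 0.0019), both of the replicative helicase. Their mean level per array was 5.72 to 6.31 in low, 5.36 to 5.56 in medium and 5.31 to 5.53 in high. Of 22 mitosis genes 4 were higher and 0 lower, including Top2a, Anln and Birc5, and their mean level was 4.42 to 4.83 in low, 4.14 to 4.31 in medium and 4.11 to 4.18 in high. The mitosis list was dim, with 6 of 22 genes below the array median on every array. The calls of Top2a and Anln were lost without 8 and 6 of the 9 arrays in turn (adjusted p up to 0.162 and 0.115, both without low replicate 1). Both calls were also lost with only low and high in the fit. That of Top2a was lost as well with quantile normalization repeated (limma adjusted p = 0.0549) and with arrays centred on their median (limma adjusted p = 0.0512). The part of these genes in the differences of the members was not tested.

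**Figure D4:**
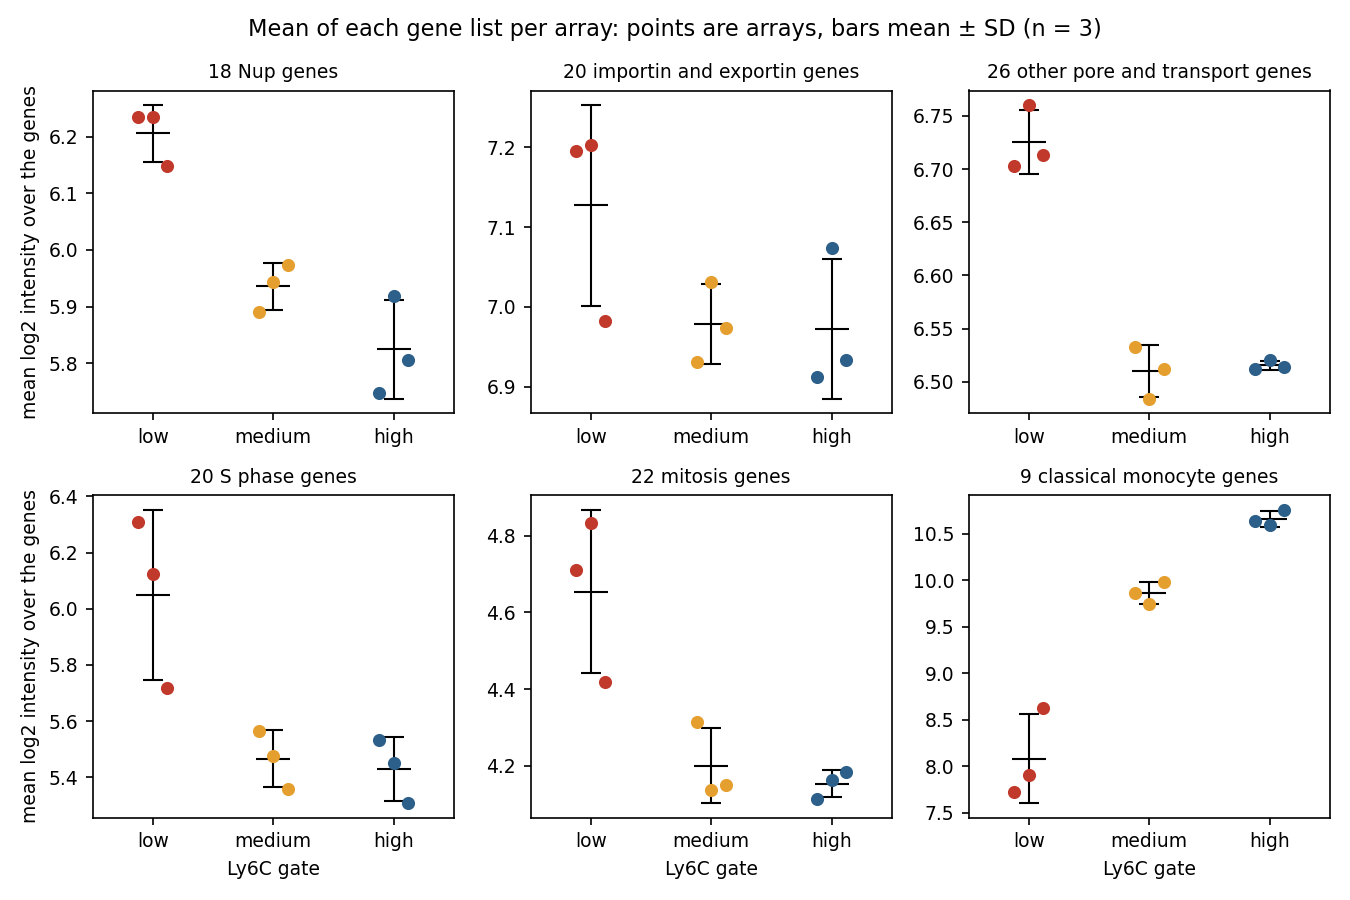
Mean log2 intensity over the genes of a list (vertical axis, scaled separately) on each array of the Ly6C low, medium and high gates; points are arrays and bars mean ± SD (n = 3). The Nup genes, the other pore and transport genes, the S phase genes and the mitosis genes have every low point above every medium and high point, the importin and exportin genes overlap, and low replicate 3 is the lowest low array for S phase and mitosis genes and the highest for classical monocyte genes.

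Ly6C low replicate 3 differed from the other low arrays in the levels of whole lists. Its mean over the 38 members was 6.59, against 6.74 on both others, 6.44 to 6.52 in medium and 6.36 to 6.53 in high. Its mean over 9 classical monocyte genes was 8.62, against 7.72 and 7.90 on the other low arrays, 9.75 to 9.97 in medium and 10.59 to 10.76 in high, and its mean over S phase genes was 5.72, against 6.31 and 6.12. Its mean over 10 neutrophil genes was 6.24, against 5.03 and 5.42, and Cxcr2, a chemokine receptor of neutrophils, was at 7.58, against 5.08 and 5.02. Ly6g, of the same list, was instead highest on low replicate 2, at 4.61, against 2.85 on replicate 1 and 3.28 on replicate 3. Replicate 3 was also the highest array of medium and of high for the neutrophil list. The part of these genes in the results was not tested. Without it, 8 members passed for low versus high, all of them higher: Nup93, Nup107, Nup43, Nup133, Nup210l, Ipo11, Ipo13 and Xpo5. Without it, Nup133 and no longer Nup93 passed for low versus medium. Calls were also lost without low replicate 3 among the other pore and transport genes. Against high these were Aaas, Ran, Rangap1 and Seh1l (limma adjusted p = 0.0838, 0.0558, 0.06 and 0.0944). Against medium the call of Ndc1 was lost (limma adjusted p = 0.0845).

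Markers of cell types also differed between the gates in the low versus high comparison. Of all 22180 genes, 744 passed as higher in Ly6C low and 514 as lower. All 9 measured classical monocyte genes were lower in Ly6C low, and 9 of 10 tissue macrophage genes and 7 of 11 dendritic cell genes were higher. The classical monocyte list includes Ly6c2, the transcript of the sorted protein, whose direction follows from the sort. Fibroblast genes were lower for 10 of 11, with a mean level of 4.87 to 4.99 in low, 5.32 to 5.47 in medium and 7.09 to 8.35 in high, and 0 of 11 were below the array median on all arrays. Eosinophil genes were higher for 3 of 6 (mean 4.52 to 4.70 in low, 3.88 to 4.25 in medium and 3.71 to 3.86 in high), with Epx and Il5ra below the array median on every array. Neutrophil genes were higher for 1 and lower for 2 of 10 (5.03 to 6.24, 5.28 to 5.97 and 4.77 to 5.32 in low, medium and high), with Ltf, Camp and Ngp below the median throughout. T and NK cell genes were higher for 2 of 8 (4.45 to 4.65, 4.16 to 4.33 and 3.97 to 4.14), with Cd3e, Cd3d, Cd3g and Ncr1 below the median throughout.

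Of the remaining lists, endothelial genes were lower for 1 of 6 (4.48 to 5.03, 4.74 to 4.81 and 5.15 to 5.68 in Ly6C low, medium and high), with Tek below the median throughout. Keratinocyte genes were higher for 1 of 5 (5.91 to 6.09, 5.75 to 6.16 and 5.34 to 6.23). For comparison, 744 of all 22180 genes passed as higher in low and 514 as lower. With limma 0 of 4 B cell genes passed, and 0 at an unadjusted p under 0.05 for low versus high (3.77 to 3.90, 3.90 to 4.32 and 3.74 to 3.92). Mean levels of tissue macrophage genes were 9.58 to 9.85 in low, 7.74 to 8.53 in medium and 6.85 to 7.33 in high, and those of dendritic cell genes 6.78 to 6.87, 5.24 to 5.30 and 4.78 to 5.11. The part of the cell types in the differences of pore and transport genes was not tested.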

How the data were processed

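Gene expression was measured on 9 arrays, 3 for each of the Ly6C low, medium and high gates. The authors deposited log2 intensities, 1 per probe set and array, made with RMA per the submitters' processing notes; its version and settings, and the genome build, are not given in the sources used here. Arrays have no sequencing depth, so precision is limited by how many there are.

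Of 41345 probe sets, 23521 had 1 gene symbol in the platform annotation, 1814 had several and 16010 had no entry. For the 1082 genes with several such probe sets, the one with the highest average intensity was used. Gene identifiers of all 38 members matched a RefSeq table of GRCm38.p6, used for names, and 0 symbols changed. All 9 arrays entered 1 linear model in limma 3.58.1 under R 4.3.3 (eBayes moderation, two-sided tests, 6 residual degrees of freedom), with Benjamini-Hochberg adjustment over 22180 genes at 0.05. Intervals are 95% intervals of the difference from that fit, not adjusted for the number of genes. No list was tested as a whole.

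The members and the lists were chosen with earlier results of these data known. Named members were those past the threshold in any comparison, the 12 with the largest difference between low and high, the 3 brightest and 3 dimmest probe sets and a fixed set of carriers and nucleoporins. Kpnb1, Nup98 and Kpna4 had the brightest probe sets, and Nup62cl, Nup188 and Kpna7 the dimmest. The remaining members were described as well, to account for all 38. Of the other lists, genes past the threshold and a few transport factors were named. The fitting was tested on simulated data. Alternatives were other scalings, probe set means, filters on dim genes, other variance priors, array weights, the replicate block, fits of 2 gates and leaving out each array.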

Additional observations from a re-analysis of the deposited data

How the results depend on the processing

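The count of members past the threshold for Ly6C low versus high was 4. It was 9, with 8 higher and 1 lower, when the replicate number was a fixed block, where 7.05% of all genes passed, and this added Ipo4, Nup43, Nup155, Xpo5 and, as lower, Kpna2. The labels do not say that the numbers pair samples. Same-numbered arrays of different gates correlated at -0.017 to 0.309 in their deviations from the gate means, and arrays of different number at -0.183 to 0.151. Between low and medium, same-numbered pairs were at 0.135, 0.1 and 0.163, and all other pairs were negative (-0.127 to -0.02). High replicate 2 was at -0.015 with low replicate 2 and -0.017 with medium replicate 2. The main fit has no block because the labels state none. Whether the number marks a shared source was not tested. Not every array correlated best with those of its own number. The count was within 1.5 times of 4 with quantile normalization repeated (3), arrays centred (4), all probe sets averaged (4), a filter on genes above the array median on at least 3 arrays (6 of 35 members, 17.1%, against 11.7% of all genes), a filter at a log2 value of 6 on at least 3 arrays (5 of 25 members, 20%, against 20.7% of all genes), a trended and robust prior (3), array weights (5) and only the 2 gates in the fit (3). Without each array in turn it ran from 3 to 8, where 2.69% to 5.6% of all genes passed. Nup93 and Nup107 passed in every one of these fits. Ipo11 did not enter the filter at 6 and passed in all the others.

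For low versus medium the count was 1 and became 0 with only the 2 gates in the fit. Without each array in turn it ran from 0 to 1. For medium versus high it was 0 in every fit run. The median difference of the members moved by less than the spread between arrays of a gate (SD 0.12) in every alternative. It ran from 0.11 to 0.22 for low versus high without each array in turn, 0.14 to 0.25 for low versus medium and 0.02 to 0.08 for medium versus high. With arrays centred it changed sign for medium versus high. Of 1314 recomputed values of the named members, 16 lost and 17 gained a call, and 0 turned direction with a call on either side. There were 51 changes of sign among values that passed in neither fit. The share of called genes that were higher in low was 59.1% as deposited, 53.4% with quantile normalization repeated and 55.1% with arrays centred. Over all genes, fits of only the 2 gates called 644 genes for low versus high (1258 with all gates), 211 for low versus medium (427) and 1 for medium versus high (53). The alternatives for genes outside the members were added after the data were seen. The cause of these changes was not tested.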

Other observations

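Further probe sets with a single symbol existed for 3 members and were not used above. For Ipo4, the second probe set was at 4.71, 5.39 and 4.88 in Ly6C low, 4.39, 4.97 and 4.05 in medium, and 5.53, 5.16 and 5.46 in high, a difference low minus high of -0.39. The brighter probe set of Ipo4 gave 0.77, so the probe sets of this histone carrier differ in sign, and low and high overlap in both. The second probe set of Kpna6 gave -0.11 and the brighter probe set 0.10. The further probe sets of Kpnb1 gave 0.04 and 0.25, and the brightest 0.19.

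Snupn, which brings spliceosomal snRNPs back into the nucleus, was named after its values were seen. It stood at 6.07, 5.64 and 5.34 in Ly6C low, 4.28, 5.20 and 4.27 in medium, and 4.31, 4.96 and 4.91 in high. Every low array was above every other array, and the differences were 0.96 over high (limma adjusted p = 0.109) and 1.10 over medium (limma adjusted p = 0.112), neither past the threshold.

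Nxt1, a cofactor of messenger RNA export, was also named after its values were seen. It was below Ly6C high on every low array, at a difference of -0.62 (limma adjusted p = 0.0615), whereas its paralogue Nxt2 differed by 0.44 (limma adjusted p = 0.196). Nxf1, the export receptor that pairs with them, differed by -0.13 (limma adjusted p = 0.631).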
